A study of Homo sapiens with 6 samples.

Results

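The mitochondrial import translocases are described here through the transcripts of every gene whose symbol begins with TOMM or TIMM followed by a digit. The 6 library tables held 21 such symbols of 17789 in all, 10 of the outer membrane series (TOMM) and 11 of the inner membrane series (TIMM). All of them were made from A549, a lung carcinoma line of human origin, grown in MEM with serum. In the FOXD3 knockdown group, 3 libraries came from cells given a pool of small interfering RNAs against FOXD3, a forkhead transcription factor, with a lipid reagent. The control group had 3 libraries labelled wild type. What was given to control wells is not stated, and the labels place the check of the knockdown at 72 h after transfection without giving the hour of RNA extraction. Transient transfection leaves the cells as a mixed population, not a clone. Whether replicates are separate cultures is not stated, and each p-value therefore reflects the spread among these libraries alone, which may be technical. Replicate numbers are in accession order and pair no libraries.

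Most mitochondrial proteins are made in the cytosol and imported. As background, the TOM complex of the outer membrane holds a channel, TOMM40, with receptors that read targeting signals and small subunits that stabilise the complex. Proteins with a cleavable presequence pass on to the TIM23 complex of the inner membrane, and carrier proteins are led by small TIM chaperones across the intermembrane space to the TIM22 complex. An ATP-driven motor then draws presequence proteins into the matrix. Nuclear genes encode all of these proteins.

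The targeted gene was close to its detection limit. Among knockdown libraries FOXD3 was listed in replicate 2 alone, at 0.0749 FPKM (fragments per kilobase of transcript, scaled to the mapped total), against 0.152, 0.291 and 0.134 FPKM in the control libraries. The groups did not overlap (exact permutation, two-sided p = 0.1, which is as small as 3 against 3 can give). The files hold no counts, so the depth behind the values is unknown. Epithelial markers summed to 8754 to 8832 FPKM in knockdown and 6743 to 7707 FPKM in control libraries, and of the 6, 3 were called higher and 2 lower. Leukocyte markers were under a mean of 0.5 FPKM or not listed in 4 of 5 and summed to 1.45 to 1.97 FPKM in knockdown and 2.86 to 4.12 FPKM in control libraries. Fibroblast markers were under that level in 4 of 5, at sums of 2.96 to 3.58 FPKM in knockdown and 3.61 to 4.56 FPKM in control libraries, and endothelial markers in 3 of 4, at 1.87 to 2.18 FPKM in knockdown and 2.55 to 3.40 FPKM in control libraries. The alveolar type II marker SFTPB was not listed and SFTPC was listed in knockdown replicate 2 alone, and NKX2-1, a lung lineage factor, stood at 1.56 to 1.65 FPKM in knockdown and 1.16 to 1.39 FPKM in control libraries. The sum of these and the A549 markers, 831 to 864 FPKM in knockdown and 417 to 430 FPKM in control libraries, was nearly all AKR1B10 and ALDH1A1. The markers named here were singled out after their values were seen. Ribosomal protein genes took 21.8% to 22.6% of the FPKM total in knockdown and 25.7% to 26.9% in control libraries. Small nucleolar RNAs took 4.82% of the total in knockdown replicate 2, 1.78% and 1.91% in the remaining knockdown libraries and 0.961% to 1.53% in control libraries. The part of these shares in the results below was not tested beyond the scaling alternatives.

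The translocase transcripts were among the more abundant in these cells. Of the 21 symbols, 20 were listed in all 6 libraries and 18 stood above 10 FPKM in every library. Their median over the 20 members tested was 57.4 to 59.8 FPKM in knockdown and 35.3 to 38.1 FPKM in control libraries. It lay above 88.4% to 88.9% of all tested genes in knockdown and above 82% to 83.2% in control libraries. FPKM is scaled to transcript length, so levels can be set side by side, but the order can depend on the quantification. Over the library tables, TOMM20, the presequence receptor, had the highest level in both groups. In the authors' deposited table the small subunit TOMM7 stood above it in knockdown, at 229 FPKM against 189 FPKM. Over the library tables TOMM7 followed TOMM20 in both groups, with ranges that did not overlap. The order below them differed: TIMM23 followed next in knockdown libraries, with a range overlapping that of TOMM22, whereas TOMM22, TOMM6 and TIMM23 followed in control libraries with overlapping ranges. TOMM40 ranked 9 in knockdown libraries, overlapping TIMM10, and 12 in control libraries, overlapping TIMM17B and TIMM9. At the low end, TOMM40L averaged 4.12 ± 0.546 FPKM in knockdown and 4.46 ± 0.475 FPKM in control libraries (SD, n = 3 each). TOMM20L, a TOMM20 paralog, stood at 0.249, 0.262 and 0.475 FPKM in knockdown libraries, against 0.532 and 0.535 FPKM in control replicates 1 and 2 and no listing in control replicate 3. Its mean was under the filter of 0.5 FPKM, so it was not tested.

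**Figure D1:**
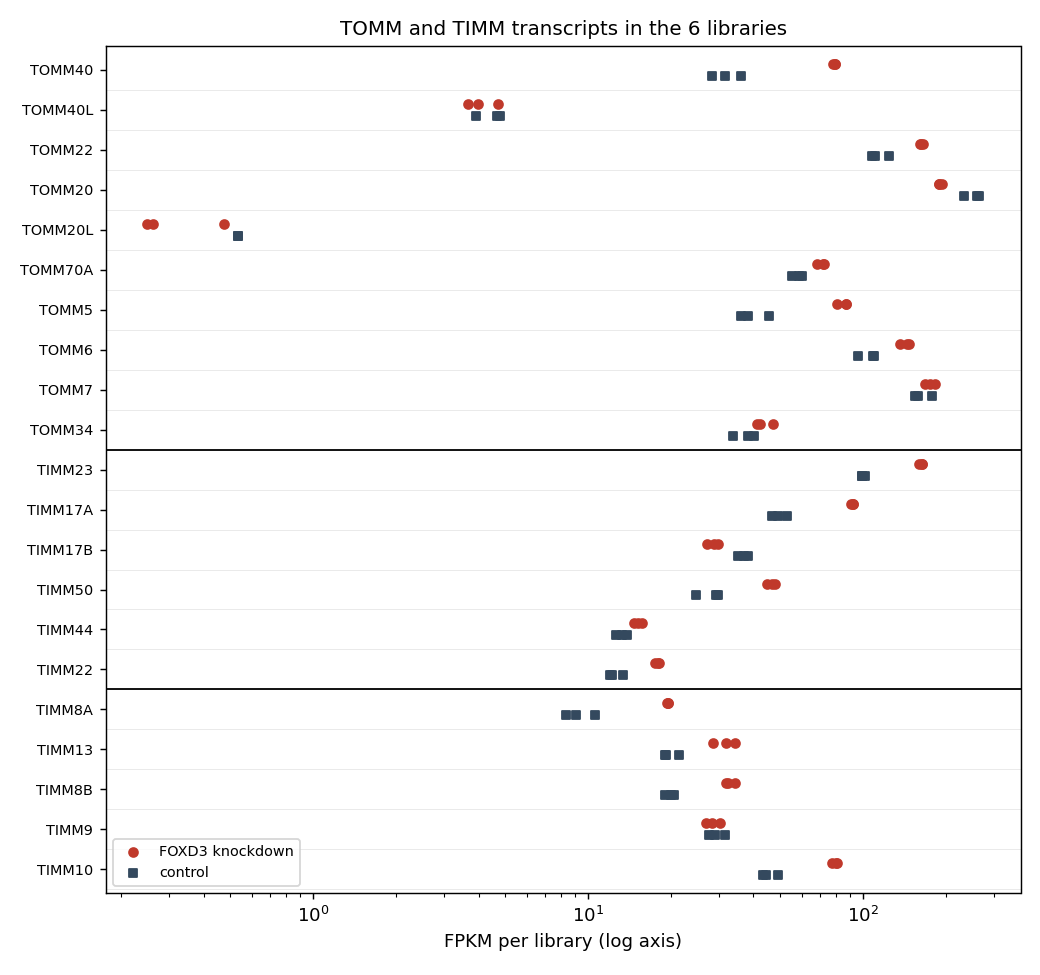
FPKM of each TOMM and TIMM transcript (rows) in every library on a log axis, red circles for the 3 FOXD3 knockdown and dark squares for the 3 control libraries; lines part the TOMM series, the inner membrane TIMM members and the small TIMs, and the control library that does not list TOMM20L has no point. TOMM40, TOMM5 and TIMM8A stand well to the right in knockdown libraries, while TOMM20 and TIMM17B stand to the left.

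The question was whether these transcripts differed between FOXD3 knockdown and control cells. Of the 20 members tested, 15 rose, 2 fell and 3 did not pass. The test was limma on log2(FPKM + 1) across 13340 genes, with a Benjamini-Hochberg adjusted p under 0.05, and all changes below are knockdown minus control on that scale. In the same fit 63.5% of all genes passed, 25.6% higher and 37.9% lower, so a call by itself is common here and the direction and size of the members' changes are what sets them beside the background. The median change of the members was 0.49, against -0.09 for all genes tested. The libraries of the groups did not overlap in 17 members, 15 with knockdown higher and 2 with knockdown lower, where 69.1% of all tested genes did so, 28.3% with knockdown higher and 40.8% with knockdown lower. After median scaling 16 members rose and 2 fell, where 63.3% of all genes passed, 31.0% higher and 32.3% lower. After quantile normalization 14 members rose and 2 fell, where 61.6% of all genes passed, 32.3% higher and 29.3% lower. A change of at least 1 was called in 2 members, TOMM40 and TOMM5, and in 1.71% of all genes. TIMM8A lay just under that size at 0.99, and above it after median scaling (1.08) and quantile normalization (1.06). In bulk libraries fewer cells of a type and less RNA per cell cannot be told apart.

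**Figure D2:**
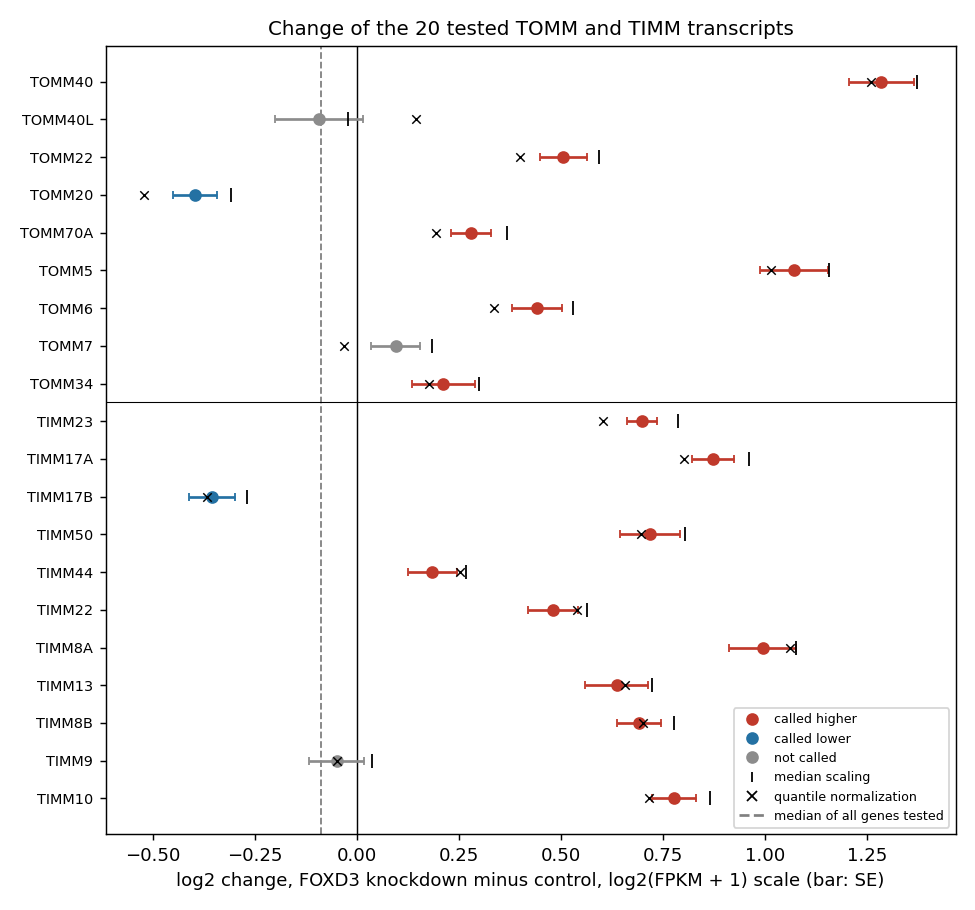
Log2 change (knockdown minus control) of the 20 tested members with its SE, coloured by call, with the value under median scaling (bar) and quantile normalization (cross) and a dashed line at the median of all genes tested. The 15 called rises run from 0.19 for TIMM44 to 1.29 for TOMM40, and TOMM20 and TIMM17B are the called falls under all 3 scalings.

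The channel and small subunits of the TOM complex changed unequally. TOMM40, the beta-barrel channel (chromosome 19, 45394477 to 45406946, hg19), measured 79.2, 79.3 and 77.7 FPKM in knockdown libraries, against 36.0, 31.5 and 28.2 FPKM in control libraries. It was 2.47-fold higher by mean FPKM, the largest rise of the family, with a log2 change of 1.29 (SE 0.08; limma adjusted p = 6.14e-06). TOMM40L, its paralog, did not follow, at 3.66 to 4.72 FPKM in knockdown and 3.91 to 4.79 FPKM in control libraries. Its log2 change of -0.09 did not pass (limma adjusted p = 0.473) and was 0.14 after quantile normalization. TOMM5 (chromosome 9, 37588412 to 37592636, hg19), a small subunit that associates with the channel, measured 86.5, 86.6 and 80.5 FPKM in knockdown libraries, against 45.6, 35.9 and 38.2 FPKM in control libraries. Its log2 change was 1.07 (SE 0.08; limma adjusted p = 1.78e-05). TOMM6, another small subunit, rose less, to 143 ± 5.52 FPKM in knockdown, against 105 ± 7.96 FPKM in control libraries (SD, n = 3 each; limma adjusted p = 0.000371). TOMM7, a small subunit also known for its part in PINK1 accumulation at the outer membrane, overlapped between the groups, at 168 to 182 FPKM in knockdown and 155 to 178 FPKM in control libraries. Its log2 change of 0.10 did not pass (limma adjusted p = 0.199). Control replicate 1 held the highest control value of TOMM7, and without it the change was 0.16 (limma adjusted p = 0.0159). The TOMM7 change was 0.18 after median scaling (limma adjusted p = 0.0441) and -0.03 after quantile normalization, over a range of adjusted p of 0.0159 to 0.651.

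The receptors of the TOM complex moved in opposite directions. TOMM20 (chromosome 1, 235272658 to 235292256, hg19) measured 194, 190 and 190 FPKM in knockdown libraries, against 233, 260 and 264 FPKM in control libraries. It fell by 0.40 on the log2 scale (SE 0.05; limma adjusted p = 0.000301). All 3 knockdown libraries lay below all 3 control libraries. The small nucleolar RNA gene SNORA14B lies within the TOMM20 locus and was listed in knockdown replicate 2 alone, at 263 FPKM; without that library TOMM20 fell by 0.39 (limma adjusted p = 0.00202). TOMM22, the central receptor that docks TOMM20 to the channel, stood at 161, 165 and 162 FPKM in knockdown libraries, against 125, 110 and 108 FPKM in control libraries. Its log2 change was 0.51 (SE 0.06; limma adjusted p = 0.000118). TOMM70A, the receptor for carrier precursors brought by cytosolic HSP70 and HSP90, was listed at 68.2 to 72.4 FPKM in knockdown and 55.5 to 60.3 FPKM in control libraries (log2 change 0.28; limma adjusted p = 0.00132). TOMM34, a cytosolic co-chaperone of precursor proteins despite its name, showed a change of 0.21 (limma adjusted p = 0.0402). That call was lost without control replicate 2 (0.0649) or 3 (0.12) and without knockdown replicate 2 (0.139) or 3 (0.0648). It was also lost with no filter on low values (0.0687), after quantile normalization (0.0682) and with eBayes without trend (0.0681), 7 of 15 alternatives in all, over a range of 0.0131 to 0.139. GENCODE 29 names 4 TOMM20 and 6 TOMM22 pseudogenes, so reads of these receptors may be divided uncertainly. The same limit holds for TIMM9 (3 pseudogenes), TIMM8B (2), TIMM8A (1) and TIMM17B (1). The locus of TOMM70A overlaps that of LNP1, which rose (log2 change 0.62; limma adjusted p = 0.000707).

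Promoters are shown for TOMM40, the member with the largest rise, for TOMM20, the receptor that fell, and for TIMM10, chosen after the search because it held several matches. TIMM8A, a small TIM with a larger rise than TIMM10, held 1 match, an E-box, and is not printed. Each line gives 250 bases before and 50 from the start site onward, 5′ to 3′ in the direction of transcription, from RefSeq on GRCh38.p14. The windows are chr19:44891004-44891303 on the plus strand for TOMM40, chr1:235128788-235129087 on the minus strand for TOMM20 and chr11:57530705-57531004 on the minus strand for TIMM10. Capitals mark matches on either strand to the NRF1 motif (GCGCA and GCGC parted by any base), the ETS motif CCGGAAG bound by GABP, the YY1 motif AAGATGGC and the E-box CACGTG.
TOMM40: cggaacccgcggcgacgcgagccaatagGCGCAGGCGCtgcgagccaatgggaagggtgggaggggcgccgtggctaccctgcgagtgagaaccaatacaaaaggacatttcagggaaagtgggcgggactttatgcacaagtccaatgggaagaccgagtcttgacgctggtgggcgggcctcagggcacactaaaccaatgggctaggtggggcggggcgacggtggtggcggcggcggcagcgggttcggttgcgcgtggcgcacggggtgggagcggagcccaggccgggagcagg
TOMM20: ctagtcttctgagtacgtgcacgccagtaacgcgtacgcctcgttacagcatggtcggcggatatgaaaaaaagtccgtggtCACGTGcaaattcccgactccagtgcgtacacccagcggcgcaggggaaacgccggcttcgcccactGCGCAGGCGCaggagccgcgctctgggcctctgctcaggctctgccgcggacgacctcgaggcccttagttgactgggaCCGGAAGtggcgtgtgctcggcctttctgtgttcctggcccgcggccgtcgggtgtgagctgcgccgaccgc
TIMM10: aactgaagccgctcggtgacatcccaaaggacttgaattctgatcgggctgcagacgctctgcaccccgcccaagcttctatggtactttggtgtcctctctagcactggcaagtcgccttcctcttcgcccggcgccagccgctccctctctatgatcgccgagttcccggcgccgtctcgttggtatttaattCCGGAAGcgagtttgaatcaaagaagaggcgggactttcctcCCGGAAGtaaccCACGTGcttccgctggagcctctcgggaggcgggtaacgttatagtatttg
TOMM40 held 1 match, to the NRF1 motif, and TOMM20 held 1 match each to the NRF1, ETS and E-box motifs. TIMM10 held 2 ETS matches and 1 E-box. The 2 genes with opposite changes thus both held the NRF1 letters. Promoters of 19 of the 21 members were matched by gene ID. The ETS motif was found in 8 of 19 members, in 10.7% of 27305 promoters and in 19.3% of the 10361 promoters of tested genes. The NRF1 motif was found in 4 of 19 members, 6.28% of all promoters and 11.8% of those of tested genes. The E-box was found in 3 of 19 members, 7.43% of all promoters and 10.1% of those of tested genes. The YY1 motif was found in 2 of 19 members, 3.03% of all promoters and 5.4% of those of tested genes. TIMM17A and TIMM17B held none of the 4 motifs in this window. NRF1 and GABP are known regulators of nuclear genes for mitochondria, and a match of letters shows no binding.

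Of the 5 members of the presequence translocase TIM23 tested under TIMM symbols, 4 rose and 1 fell. TIMM21, listed under the older symbol C18orf55, is not among them and rose by 0.24 (limma adjusted p = 0.0123). TIMM23, the channel-forming subunit (chromosome 10, 51592088 to 51623336, hg19), measured 160, 165 and 164 FPKM in knockdown libraries, against 99.4, 102 and 99.0 FPKM in control libraries. Its log2 change was 0.70 (SE 0.04; limma adjusted p = 3.09e-06). TIMM23B, a near-identical copy, was not in the tables, so reads of the copies may be assigned to TIMM23. TIMM50, the receptor that takes presequences from the TOM complex, stood at 46.6, 47.8 and 44.7 FPKM in knockdown libraries, against 29.7, 29.1 and 24.7 FPKM in control libraries (log2 change 0.72; limma adjusted p = 6.78e-05). TIMM44, which tethers the import motor to the channel, rose least of the called members, at 15.2 ± 0.485 FPKM in knockdown and 13.3 ± 0.626 FPKM in control libraries (SD, n = 3 each; limma adjusted p = 0.0263). The TIMM44 call was lost without control replicate 3 (0.0821), knockdown replicate 1 (0.0735) or knockdown replicate 3 (0.0916), over a range of 0.00481 to 0.0916.

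The paralogs TIMM17A and TIMM17B, which occupy the same place in alternative forms of the TIM23 complex, moved apart. TIMM17A (chromosome 1, 201924619 to 201939789, hg19) measured 90.5, 92.0 and 92.1 FPKM in knockdown libraries, against 52.9, 49.1 and 46.8 FPKM in control libraries. Its log2 change was 0.87 (SE 0.05; limma adjusted p = 4.82e-06). TIMM17B (chromosome X, 48750730 to 48755426, hg19) measured 28.8, 27.1 and 29.8 FPKM in knockdown libraries, against 35.2, 38.2 and 36.9 FPKM in control libraries. It fell by 0.35 (SE 0.06; limma adjusted p = 0.000747). The locus of TIMM17B overlaps that of PQBP1, which rose to 54.9 FPKM in knockdown libraries (log2 change 0.37; limma adjusted p = 0.00209), and without a stated strand setting their shared reads cannot be separated. The ratio of TIMM17A to TIMM17B was 3.14, 3.40 and 3.09 in knockdown libraries, against 1.501, 1.29 and 1.27 in control libraries. The log2 ratio with a pseudocount of 1 differed by 1.23, from a mean of 1.65 ± 0.07 in knockdown and 0.42 ± 0.13 in control libraries (SD, n = 3 each). An exact permutation gave a two-sided p of 0.1, again the smallest possible, and 0.1 after Benjamini-Hochberg adjustment over the 3 paralog pairs tested.

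TIMM22 and 4 of the 5 small TIM chaperones listed under TIMM symbols rose, and TIMM9 did not pass. TIMM10B, another small TIM, and TIMM29, of the TIM22 complex, are listed under older symbols and did not pass (limma adjusted p = 0.389 for FXC1 and 0.92 for C19orf52). TIMM22, the channel of the carrier pathway, stood at 18.1, 17.5 and 18.01 FPKM in knockdown libraries, against 13.4, 12.2 and 11.98 FPKM in control libraries (log2 change 0.48; limma adjusted p = 0.000233). TIMM8A (chromosome X, 100600644 to 100603957, hg19), mutated in the Mohr-Tranebjaerg deafness-dystonia syndrome, measured 19.5 FPKM in all 3 knockdown libraries, against 8.34, 10.6 and 9.06 FPKM in control libraries. It was 2.09-fold higher by mean FPKM, with a log2 change of 0.99 (SE 0.08; limma adjusted p = 2.35e-05). TIMM13, which forms hexamers with TIMM8A, rose to 31.6 ± 2.86 FPKM in knockdown, against 19.9 ± 1.27 FPKM in control libraries (SD, n = 3 each; limma adjusted p = 0.000172). TIMM8B, a TIMM8A paralog, rose to 32.7 ± 1.31 FPKM in knockdown, against 19.9 ± 0.764 FPKM in control libraries (SD, n = 3 each; limma adjusted p = 1.85e-05). TIMM10 stood at 79.5, 77.2 and 80.3 FPKM in knockdown libraries, against 49.1, 44.6 and 43.5 FPKM in control libraries (log2 change 0.78; limma adjusted p = 1.03e-05). TIMM9, its partner in the hexamer that guides carriers, overlapped between the groups, at 30.1, 28.2 and 26.9 FPKM in knockdown libraries, against 27.6, 29.1 and 31.6 FPKM in control libraries. Its log2 change of -0.05 did not pass (limma adjusted p = 0.544) and turned to 0.04 after median scaling and to 0.0023 without control replicate 3. TIMM9 overlaps TOMM20L and KIAA0586, and KIAA0586 rose (log2 change 0.69; limma adjusted p = 8.73e-05).

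Ratios between partners followed these values. The ratio of TIMM10 to TIMM9 was 2.64, 2.73 and 2.99 in knockdown libraries, against 1.78, 1.53 and 1.37 in control libraries. TOMM20 transcripts stood at 2.46, 2.40 and 2.44 times those of TOMM40 in knockdown libraries, against 6.47, 8.28 and 9.39 times in control libraries. Both ratios were chosen after the values were seen and are given with no test. The paralogs TIMM8A and TIMM8B rose together, and their ratio was 0.613, 0.605 and 0.569 in knockdown libraries, against 0.438, 0.515 and 0.451 in control libraries. Their log2 ratio differed by 0.30, and that of TOMM40 to TOMM40L by 1.38, each with exact permutation p = 0.1 and 0.1 adjusted over the 3 pairs.

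**Figure D3:**
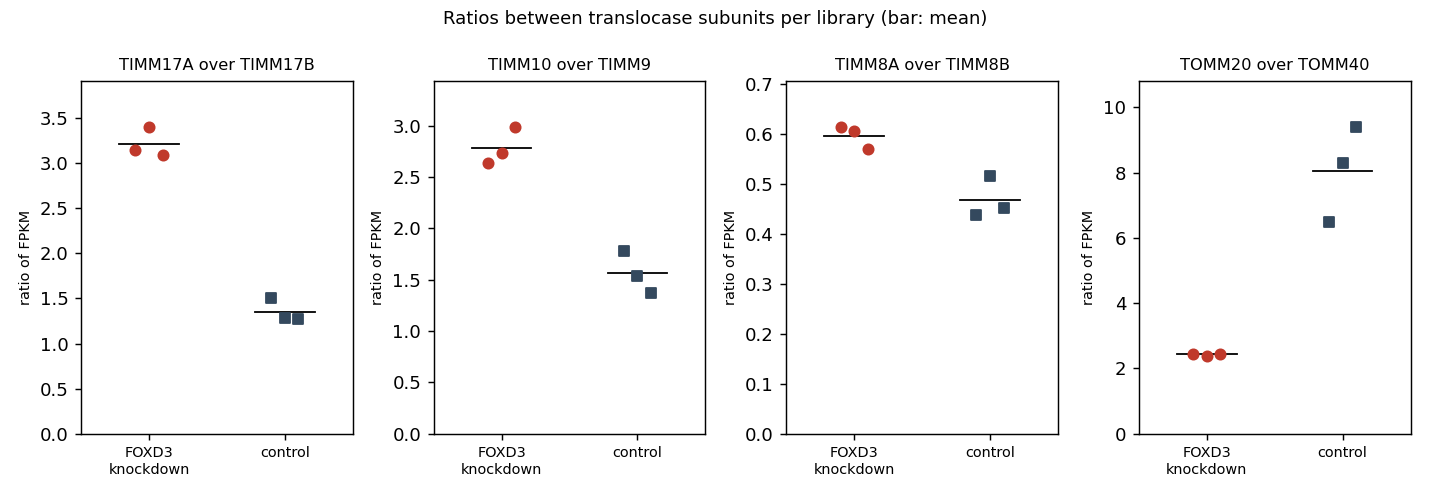
Ratio of FPKM between subunits in each library, with the mean as a line, for FOXD3 knockdown (left, circles) and control (right, squares) libraries; each axis starts at 0. The TIMM17A to TIMM17B and TIMM10 to TIMM9 ratios are higher in every knockdown library, the TIMM8A to TIMM8B ratio is higher by a smaller step, and the TOMM20 to TOMM40 ratio is lower.

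The TIMM series had the higher median change and the larger relative difference in its sum, while the largest single changes, of TOMM40 and TOMM5, were in the TOMM series. Of 11 TIMM members 9 rose, 1 fell and 1 did not pass, with a median log2 change of 0.69. These leave out TIMM21, TIMM10B and TIMM29, listed under older symbols, whose changes were smaller than that median. They were 0.24, -0.07 and 0.01, and TIMM21 alone was called. A median with them included was not computed. Of 9 tested TOMM members 6 rose, 1 fell and 2 did not pass, with a median of 0.28, or 0.36 without the cytosolic TOMM34. The medians are descriptions, since the genes share libraries, and the difference between them was not tested. The outer median depended on scaling, at 0.37 after median scaling and 0.20 after quantile normalization, while the inner one was 0.78 and 0.66. Summed FPKM of the TIMM series was 554, 553 and 554 in knockdown libraries, against 369, 368 and 355 in control libraries. Summed FPKM of the TOMM series was 956, 956 and 949 in knockdown libraries, against 833, 805 and 787 in control libraries. Outer over inner was therefore 1.73, 1.73 and 1.71 in knockdown libraries, against 2.25, 2.19 and 2.22 in control libraries. Without the cytosolic TOMM34 this ratio was 1.64 to 1.65 in knockdown and 2.08 to 2.15 in control libraries. The inner sum includes the small TIMs of the intermembrane space. TOMM20 made up 19.8% to 20.3% of the TOMM sum in knockdown and 28.0% to 33.6% in control libraries. Without TOMM20 the outer to inner ratio was 1.37 to 1.39 in knockdown and 1.47 to 1.62 in control libraries, still without overlap.

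**Figure D4:**
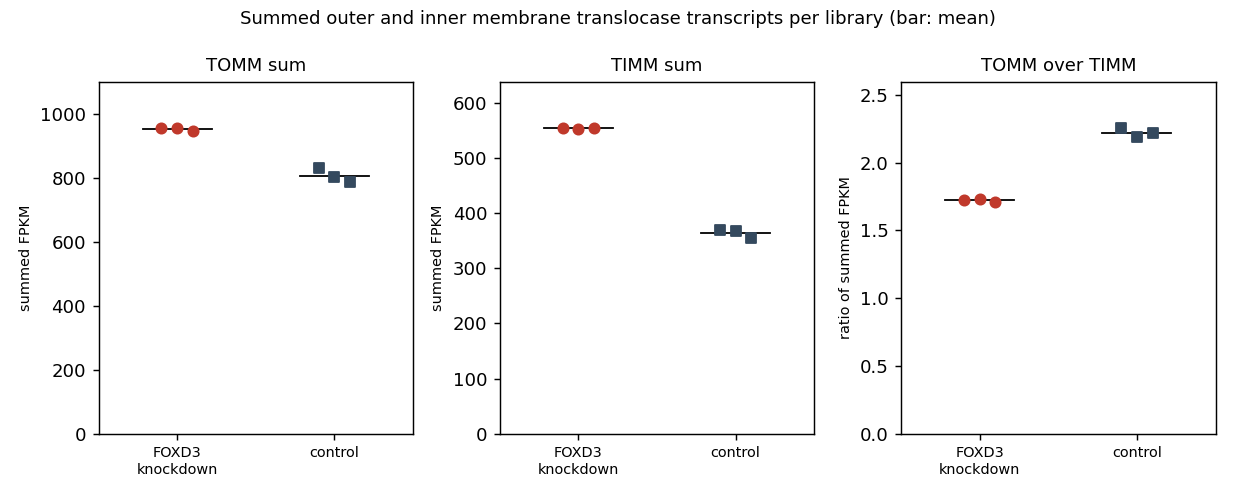
Summed FPKM of the TOMM and the TIMM series and their ratio in each library, with the mean as a line; knockdown libraries are on the left and control libraries on the right, and each axis starts at 0. Both sums are higher in knockdown libraries, the TIMM sum by more, so that the ratio is 1.71 to 1.73 in knockdown and 2.19 to 2.25 in control libraries.

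Other parts of the import route were read from lists of partners. The background of the list counts here and below is the share of all genes tested, 25.6% called higher and 37.9% lower. With so few genes in the partner lists, their counts are descriptions. In the import motor list, which also holds ROMO1, 4 of 7 genes rose and 1 fell, with a median log2 change of 0.17. GRPEL1, the nucleotide exchange factor of the matrix HSP70, stood at 32.7, 35.1 and 36.1 FPKM in knockdown libraries, against 15.3, 16.3 and 19.5 FPKM in control libraries (log2 change 0.99; limma adjusted p = 3.33e-05). Its paralog GRPEL2 fell by 0.30 (limma adjusted p = 0.00335), so that this pair, like TIMM17A and TIMM17B, held a member higher and a member lower. HSPA9, the matrix HSP70 itself, changed by 0.17, and that call was lost after quantile normalization (limma adjusted p = 0.444, range over 15 alternatives 0.00104 to 0.444). DNAJC19 and DNAJC15, co-chaperones of the motor, were called higher by 0.17 and 0.30. The DNAJC15 call was lost without control replicate 3 (limma adjusted p = 0.0613), knockdown replicate 1 (0.0639) or knockdown replicate 3 (0.0966). It was also lost with no filter on low values (0.0575), over a range of 0.0122 to 0.0966. PAM16 and ROMO1 did not pass.

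Among presequence peptidases and matrix chaperones 7 of 10 rose and 2 fell, with a median of 0.38, and 3 of these calls were unstable. HSPE1, the co-chaperonin of HSPD1, stood at 382, 387 and 396 FPKM in knockdown libraries, against 166, 159 and 153 FPKM in control libraries (log2 change 1.28; limma adjusted p = 5.15e-07). HSPD1 rose by 0.54, and PITRM1, which degrades cleaved presequences, by 0.84. The subunits of the matrix processing peptidase differed: PMPCA rose by 0.59 (limma adjusted p = 0.000256) and PMPCB fell by 0.22 (limma adjusted p = 0.0321). The PMPCB call was lost in 7 of 15 alternatives, among them those without control replicate 2 (0.104) or 3 (0.0758) and without knockdown replicate 1 (0.116) or 2 (0.0607), over a range of 0.0126 to 0.137. CLPB, a disaggregase of the intermembrane space, overlapped between the groups, at 11.4, 12.2 and 12.2 FPKM in knockdown libraries, against 11.5, 9.57 and 9.57 FPKM in control libraries (limma adjusted p = 0.0491). Its call was lost in 7 of 15 alternatives, among them those without control replicate 2 (0.14) or 3 (0.141) and without knockdown replicate 1 (0.0679), 2 (0.127) or 3 (0.122), over a range of 0.0052 to 0.141. TRAP1, the mitochondrial HSP90, changed by 0.20 (limma adjusted p = 0.0218). Its call was lost in 5 of 15 alternatives, after quantile normalization (0.118), without control replicate 2 (0.0669) or 3 (0.0634) and without knockdown replicate 1 (0.0711) or 3 (0.0607), over a range of 0.00123 to 0.118. MIPEP, an intermediate peptidase, did not pass. The inner membrane peptidase genes differed too, with IMMP1L at 16.6, 16.7 and 21.9 FPKM in knockdown and 8.78, 10.1 and 7.26 FPKM in control libraries. IMMP2L stood at 8.68, 7.12 and 6.57 FPKM in knockdown and 12.8, 10.7 and 11.1 FPKM in control libraries. In the sorting (SAM) and disulfide relay (MIA) list 1 of 6 rose and 1 fell, with a median of -0.13. SAMM50, the beta-barrel assembly channel, rose by 0.47 and GFER, the sulfhydryl oxidase, fell by 0.24. The metaxins MTX1, MTX2 and MTX3 and the relay oxidoreductase CHCHD4 did not pass. MTX2 (-0.14; limma adjusted p = 0.0695) was called lower after quantile normalization (0.0265) and without knockdown replicate 3 (0.035). MTX3 was called lower without control replicate 1 (-0.28; limma adjusted p = 0.0171).

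In the list of insertases and members under older symbols 3 of 8 rose and 1 fell, with a median of -0.01. MTCH2, an outer membrane insertase, rose by 0.47, AGK, a TIM22 complex subunit, by 0.28, and OXA1L, the inner membrane insertase, fell by 0.33. MTCH1, a paralog of MTCH2, and TIMMDC1, a complex I assembly factor, did not pass, with changes of -0.02 and -0.09. MTCH1 was called lower after quantile normalization (-0.15; limma adjusted p = 0.0196). C18orf55, the older symbol of TIMM21, rose by 0.24 (limma adjusted p = 0.0123). FXC1 and C19orf52, older symbols of TIMM10B and TIMM29, did not pass, with changes of -0.07 and 0.01. Cytosolic chaperones that carry precursors rose in 6 of 6, with a median of 0.54. HSP90AA1 and DNAJA1 rose by 1.29 and 1.03, and HSPA8 by 0.79. HSP90AB1 and DNAJA2 each rose by 0.28, and DNAJB1 changed by 0.19, a call lost after quantile normalization (limma adjusted p = 0.0528, range over 15 alternatives 0.000871 to 0.0528). Transcription factors and coactivators of mitochondrial genes rose in 8 of 11 and fell in 2. TFAM, the mitochondrial DNA packaging factor, stood at 45.4, 48.8 and 46.1 FPKM in knockdown libraries, against 24.9, 30.8 and 26.8 FPKM in control libraries. NRF1 stood at 6.70, 6.59 and 6.53 FPKM in knockdown libraries, against 4.46, 5.50 and 5.23 FPKM in control libraries (log2 change 0.33; limma adjusted p = 0.0093). GABPB1, a GABP subunit, rose by 0.67, TFB2M, a mitochondrial transcription factor, by 0.65 and YY1 by 0.52. The coactivators PPRC1 and PPARGC1B rose by 0.53 and 0.47, and MYC by 0.23. TFB1M, an rRNA dimethyltransferase of mitochondria, fell by 0.80 and the nuclear receptor ESRRA by 0.24. GABPA, the DNA-binding subunit of GABP, did not pass, but was called lower without control replicate 1 (-0.20; limma adjusted p = 0.0428). PPARGC1A, a coactivator of mitochondrial biogenesis, was under the filter.

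Proteins that the translocases import were read from symbol prefixes. Symbols beginning with MRPL or MRPS, mostly mitochondrial ribosomal proteins, rose in 42 and fell in 6 of 79, with a median of 0.19. They include an antisense RNA and 2 pseudogenes, and the antisense RNA, MRPL23-AS1, is 1 of the 6 falls. MRPL20 rose to 173 ± 1.13 FPKM in knockdown, against 74.7 ± 11.05 FPKM in control libraries (SD, n = 3 each). NDUFA, NDUFB, NDUFC, NDUFS and NDUFV symbols, mostly complex I subunits, rose in 16 and fell in 7 of 38, with a median of 0.14. They include NDUFA4, now placed in complex IV, and its paralog NDUFA4L2. Genes beginning with UQCR, COX4 to COX8 or ATP5, mostly of complexes III to V, rose in 14 and fell in 8 of 39, with a median of 0.04. The background of these counts is 25.6% higher and 37.9% lower. After quantile normalization the NDUF counts were 12 and 11 and those of the complex III to V list 11 and 13, near the background of 32.3% higher and 29.3% lower in that setting. The median of the complex III to V list was then -0.07, so its direction depended on scaling. No list was tested against another.

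**Figure D5:**
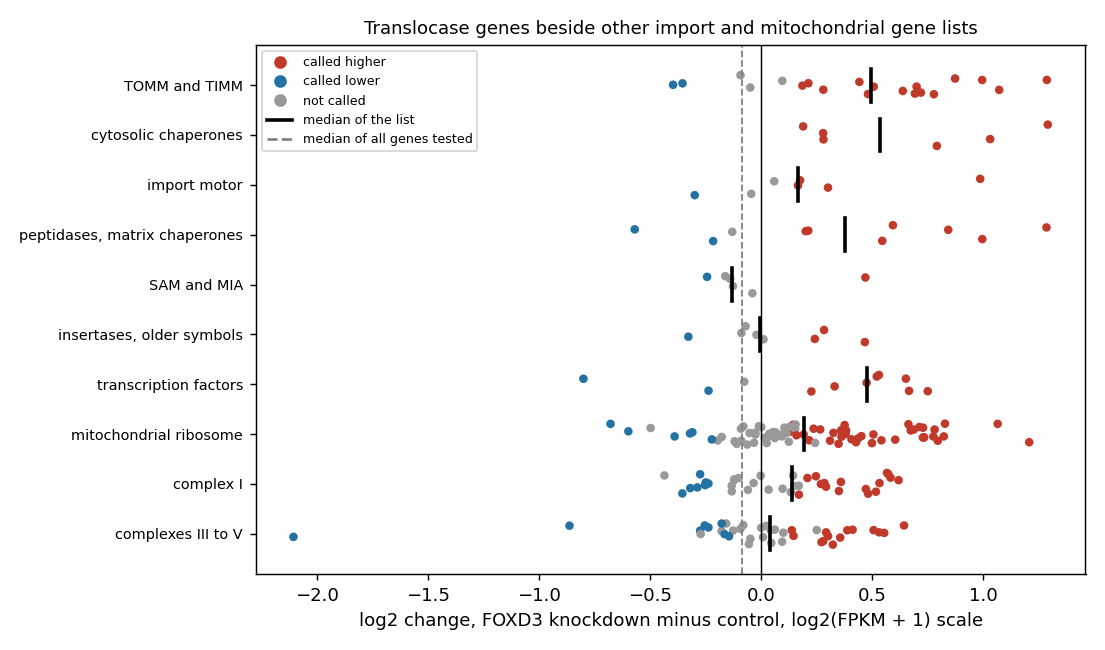
Log2 change (knockdown minus control) of every tested gene in the translocase family and 9 lists of import partners and mitochondrial proteins, coloured by call, with a bar at each list's median and a dashed line at the median of all genes. Medians are 0.49 for the translocases, 0.54 for the cytosolic chaperones and 0.19, 0.14 and 0.04 for the ribosomal, complex I and complex III to V lists, which were drawn by symbol prefix.

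In the authors' deposited table, which gives a value per group and another test, 9 of 22 TIMM and TOMM symbols had a false discovery rate under 0.05, all higher in knockdown, where 22.1% of its 12275 genes passed and 10.9% passed as higher. They were TOMM40, TOMM5, TOMM22, TIMM17A, TIMM23, TIMM50, TIMM8A, TIMM10 and TIMM13. The 22 symbols are not the 21 of the library tables. They include TIMM10B and TIMM21, which the library tables list as FXC1 and C18orf55, and lack TOMM20L. For TOMM40 the authors' deposited table gives a log2 fold change of 1.45, knockdown over control. The authors' deposited table does not call the falls of TOMM20 (-0.32, false discovery rate 0.323) and TIMM17B (-0.23, false discovery rate 0.725), so both rest on the per-library values here. Some of the rises called here also miss a false discovery rate of 0.05 there. They are TOMM6 (0.0510), TIMM22 (0.0695), TIMM8B (0.115), TOMM70A (0.222), TOMM34 (0.257) and TIMM44 (0.329). These calls too rest on the per-library values. For TOMM7 the authors' deposited table gives 229 FPKM in knockdown and 234 FPKM in control. The means over the library tables were 175 and 164 FPKM. For TOMM20 the authors' deposited table gives 189 FPKM in knockdown and 237 FPKM in control. There TOMM7 thus lay above TOMM20 in knockdown and near it in control, unlike the order over the library tables.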

How the data were processed

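RNA-seq of A549 cells was read from 6 deposited tables, 3 per group, whose values are FPKM, per the file headers. The submitters' processing notes name TopHat2 2.0.12, Bowtie, Cufflinks 2.0.2, Cuffdiff and hg19, with no role or order. For strand setting, read length and annotation the sources used here give nothing. Per gene, the authors' deposited comparison table holds group FPKM, a log2 fold change, its p-value and its false discovery rate, per the file headers.

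FPKM was summed over rows of a symbol, with unlisted symbols set to 0. Symbols with a mean of at least 0.5 FPKM were fitted on log2(FPKM + 1) with limma 3.58.1 in R 4.3.3 (eBayes with trend), with Benjamini-Hochberg adjustment over all 13340 genes, and tested on simulated data. Paralog ratios and FOXD3 were compared by exact permutation. Genes were named as every member, every gene of lists of at most 12 genes, and up to 4 called genes of longer lists. The members and lists were chosen with earlier results of these data known. Deposited starts were read as 0-based and are printed 1-based. Scaling, pseudocounts, filters and left-out libraries were varied. Depth is unknown, so no counting interval is given.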

Additional observations from a re-analysis of the deposited data

How the results depend on the processing

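Of 299 member values over 15 alternatives, 283 kept their direction and side of the threshold, 10 lost the call, 2 gained it and 4 changed sign. Taking the highest row of a symbol left every member's log2 change as it was, so that alternative is no check of the members. The filter and eBayes alternatives alter only the p-values, so no sign could turn in them. The 15 rises became 16 with median scaling and 14 with quantile normalization; TOMM20 and TIMM17B were the 2 falls under both. The median change of the TOMM members, 0.28, was 0.36 with a filter at 5 FPKM, 0.37 after median scaling and 0.20 after quantile normalization. Leaving out 1 library gave 0.25 to 0.31 for it, 0.64 to 0.71 for the TIMM members and 13 to 16 members called higher. Of 719 values of 48 partner genes, 673 stayed, 25 lost the call, 5 gained it and 16 changed sign. Every sign change was of a gene not called in either setting, and the cause was not tested. After median scaling these were TIMM9 (0.037), CHCHD4 (0.040), FXC1 (0.0097), GABPA (0.0038), MTCH1 (0.067) and PAM16 (0.041). After quantile normalization they were TOMM40L (0.14), TOMM7 (-0.030), CHCHD4 (0.065), FXC1 (0.015), GABPA (0.027), MIPEP (0.023) and ROMO1 (-0.078). Leaving out 1 library at a time turned 5 genes. Their values ran from -0.0938 to 0.0023 for TIMM9, -0.145 to 0.054 for CHCHD4 and -0.199 to 0.014 for GABPA. They ran from -0.054 to 0.024 for MTCH1 and -0.052 to 0.0554 for C19orf52. The GABPA value of -0.199, without control replicate 1, was called lower (limma adjusted p = 0.0428). No paired analysis was possible because the labels number no replicates and the numbers used here are in accession order, so the fit with a replicate block was not run. With no counts, depth limits low genes such as FOXD3 and TOMM20L to a description.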
